A study of Mus musculus with 20 samples.

Results

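Gene expression in mouse tumors given the EZH2 inhibitor GSK343 together with an antibody against the chemokine CXCL10 (n = 5 libraries) was compared with that in tumors given GSK343 together with a control antibody (n = 5 libraries). The members are the libraries with these 2 labels, 10 of the 19 libraries in the table, and every gene was examined. The tumors were grown under the skin of C57/BL6 mice for 4 weeks from HEPA1-6, a mouse hepatoma cell line, and poly-A RNA was sequenced. The remaining libraries came from tumors given anti-CXCL10 without GSK343 (n = 5) or control antibody without GSK343 (n = 4), and replicate 4 of that control was not analysed here. The labels give no dose, clone or isotype of either antibody, and no dose or schedule of GSK343. They number 5 replicates per group where the series' design text speaks of 3. Nothing in them ties a library to its own mouse, so each p-value reflects the variation among these libraries, which may partly be technical.

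CXCL10, together with CXCL9 and CXCL11, is a chemokine that cells secrete after exposure to interferon-gamma, and its receptor CXCR3 is carried by activated T cells and natural killer (NK) cells. These cells release interferon-gamma in turn, so that the ligands and the cells they attract can feed each other. EZH2 is the catalytic subunit of Polycomb repressive complex 2 (PRC2), which places a repressive methyl mark on histone H3, and loss of that mark has been described to raise CXCL9 and CXCL10 in some tumors. An antibody binds the secreted protein, so transcript levels do not show whether CXCL10 was neutralised.

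In GSK343-treated tumors, transcripts of immune cells, interferon-induced genes, chemokines, immunoglobulins and connective tissue were lower with anti-CXCL10 than with the control antibody, and a smaller number of liver transcripts were higher. Of 14385 tested genes, 1456 (10.1%) passed an adjusted p of 0.05 in limma on log2(FPKM + 1), where FPKM is the deposited level per gene length and library. Of all tested genes, 955 (6.64%) were called lower and 501 (3.48%) were called higher with anti-CXCL10. At least a 2-fold difference was reached by 202 of the lower and 17 of the higher genes. The 2 groups did not overlap at 8.77% of the tested genes, at 669 that were lower (4.65%) and at 593 that were higher (4.12%), and 569 and 343 of these were called. The median change of all tested genes was 0.03 on the log2 scale. The count of called genes changed by over 1.5 times when 1 of 4 libraries was left out. It was 963 and 837 when replicates 1 and 5 of anti-CXCL10 plus GSK343 were dropped in turn, and 932 and 861 when replicates 2 and 3 of control antibody plus GSK343 were.

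The libraries differed in tissue other than hepatoma. Skeletal muscle markers averaged 1.10, 1.43, 2.52, 2.53 and 1.34 as mean log2(FPKM + 1) in anti-CXCL10 plus GSK343 libraries 1 to 5, against 1.88, 2.37, 4.44, 6.28 and 4.32 in control antibody plus GSK343 libraries 1 to 5. Replicates 3, 4 and 5 of the control antibody stood above all anti-CXCL10 libraries, while its replicates 1 and 2 lay within their range. The median difference of the 21 muscle markers was -2.16, of which 1 was called lower. Tnnt3, fast muscle troponin T, had 1.29, 2.66, 16.1, 15.1 and 3.41 FPKM in the 5 anti-CXCL10 plus GSK343 libraries, against 9.31, 15.5, 83, 356 and 71 FPKM in the 5 control antibody plus GSK343 libraries (log2 change -3.03 ± 1.03, adjusted p = 0.0705). Both Tnnt3 and Casq1, a calcium store protein of muscle, missed the threshold (log2 change -1.80 ± 0.61, adjusted p = 0.0702 for Casq1). Without replicate 1 of control antibody plus GSK343, 17 muscle markers were called lower, Tnnt3 (adjusted p = 0.0314) and Casq1 (0.0133) among them. The count was 3 without its replicate 2, Casq1 included (adjusted p = 0.0472), and 0 without its replicate 3 or without replicate 1 or 5 of anti-CXCL10 plus GSK343. With the muscle score as a covariate, 124 genes passed, of which 112 were among the 1456, and without those 3 libraries 497 passed, of which 301 were among them. The latter fit, here and below, keeps only replicates 1 and 2 of control antibody plus GSK343. The first of these fits had 26 higher and 98 lower genes, and the second 229 higher and 268 lower, so that 21.0% and 46.1% were higher, against 34.4% of the 1456. Replicate 1 of control antibody plus GSK343 had the lowest T cell, NK cell and interferon-gamma response scores of its group, and without it 1829 genes passed. Replicates correlated at 0.963 to 0.976 with anti-CXCL10 plus GSK343 and at 0.942 to 0.974 with control antibody plus GSK343, and libraries of different groups at 0.937 to 0.962. The library names number the control antibody libraries within 1 to 10 and the anti-CXCL10 libraries again from 1 to 10, so a separate handling of each antibody arm, if there was one, cannot be told apart from the antibody.

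**Figure D1:**
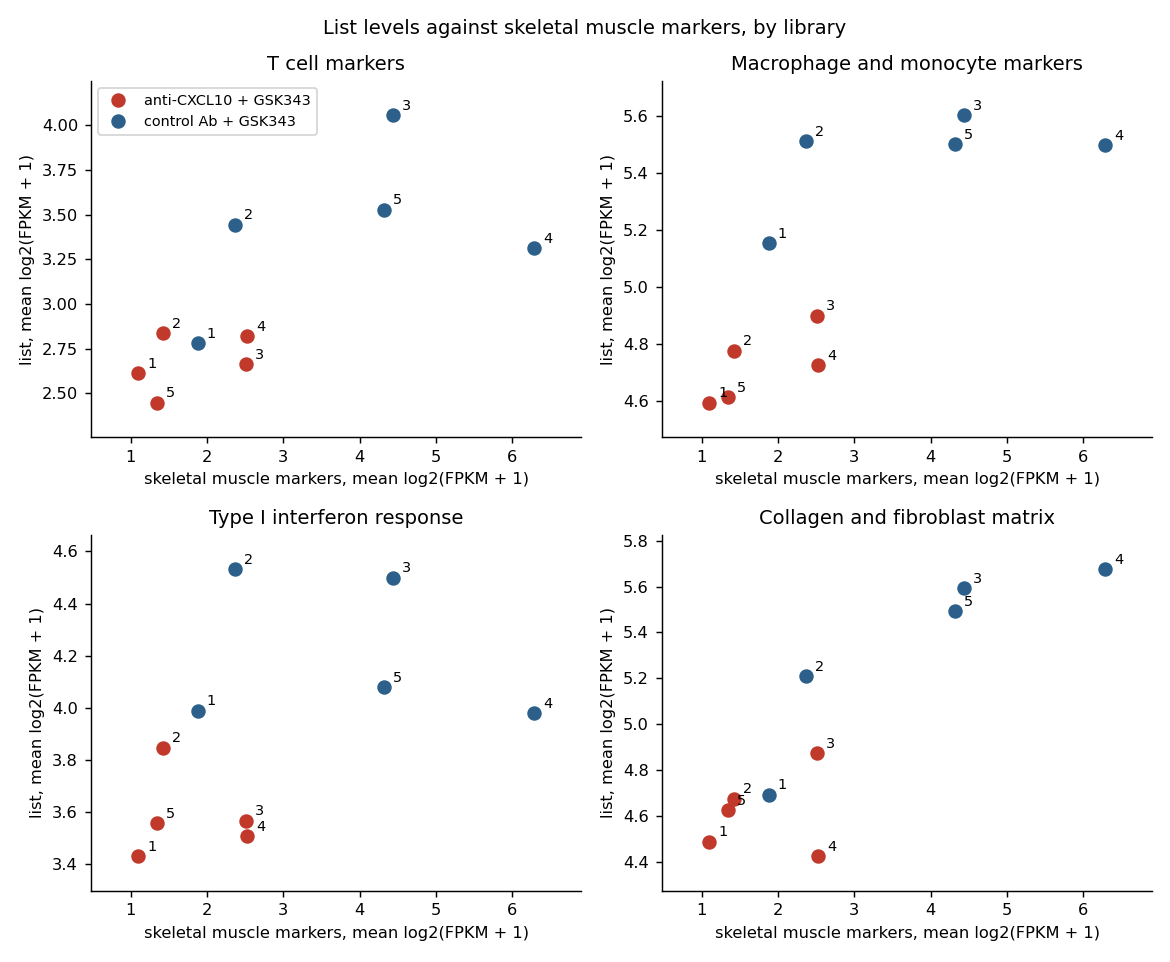
Mean log2(FPKM + 1) of 4 gene lists (vertical axes) against that of the skeletal muscle markers (horizontal axis) in each of the 10 libraries, numbered by replicate, with anti-CXCL10 plus GSK343 in red and control antibody plus GSK343 in blue. Replicate 2 of the control antibody, at 2.37 for muscle, lies within the muscle range of the anti-CXCL10 libraries and above all of them in each list. Its replicate 1, at 1.88 for muscle, lies above them for macrophages and the type I interferon response but within their range for T cells and matrix.

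In control antibody plus GSK343 replicate 2, whose muscle score lay within the anti-CXCL10 range, the T cell score was 3.44, against 2.45 to 2.84 in the 5 anti-CXCL10 plus GSK343 libraries. Its replicate 1 had a T cell score of 2.78, within the anti-CXCL10 range. The same library was also within that range for NK cells (2.07), the interferon-gamma response (5.23) and matrix genes (4.69). For the CXCR3 axis its score of 2.657 was just below the lowest anti-CXCL10 library (2.660). The macrophage score was 5.15 in replicate 1 and 5.51 in replicate 2, and both exceeded the range of 4.60 to 4.90 with anti-CXCL10 plus GSK343. Immediate early genes likewise scored 5.16 and 5.19 in these 2 control antibody libraries, against 4.30 to 4.65 with anti-CXCL10 plus GSK343. The part of muscle tissue in the other results was not tested further. In bulk tumor RNA, fewer cells of a type and less RNA per cell cannot be told apart.

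The ligands and receptor of the CXCR3 axis were examined first. Of 6 tested members, 1 was called lower and none higher, with a median of -0.73. Cxcl10 itself was at 114, 111, 110.1, 131 and 82.2 FPKM with anti-CXCL10 plus GSK343, against 126, 283, 263, 165 and 188 FPKM with control antibody plus GSK343 (log2 change -0.85 ± 0.25, adjusted p = 0.0411). Its level with control antibody plus GSK343 was lowest in replicate 1, which alone fell below the highest anti-CXCL10 library. Among the tumors without GSK343, Cxcl10 averaged 116 ± 41.5 FPKM with anti-CXCL10 and 96.9 ± 24.5 FPKM with control antibody. For Cxcl9, its closest relative, the values were 76.9, 77, 105, 88.1 and 71.9 FPKM with anti-CXCL10 plus GSK343, against 66.6, 199, 237, 158 and 145 FPKM with control antibody plus GSK343 (log2 change -0.83 ± 0.32, adjusted p = 0.106). Cxcl9 missed the threshold, and its control antibody replicate 1 was below every anti-CXCL10 library while the other 4 were above all of them. Cxcl11, the third ligand, had 0.826, 2.15, 0.813, 0.77 and 0.917 FPKM with anti-CXCL10 plus GSK343, against 0.661, 7.66, 7.96, 1.82 and 4.16 FPKM with control antibody plus GSK343 (log2 change -1.15 ± 0.41, adjusted p = 0.0827). The receptor Cxcr3 had 0.58, 1.39, 1.41, 0.829 and 0.666 FPKM with anti-CXCL10 plus GSK343, against 0.466, 2.05, 3.7, 2.4 and 2.32 FPKM with control antibody plus GSK343 (log2 change -0.62 ± 0.23, adjusted p = 0.0896). For both genes replicate 1 of the control antibody was again the lowest library of the 10.

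Dpp4, a peptidase that trims and inactivates CXCL10, differed by -0.36 ± 0.23, adjusted p = 0.327, and Ackr1, an atypical receptor that binds many chemokines without signalling, by -0.61 ± 0.19, adjusted p = 0.0509. Ackr1 passed with median-ratio scaling (adjusted p = 0.0479), without replicate 3 of anti-CXCL10 plus GSK343 (adjusted p = 0.0376) and without replicate 1, 2 or 5 of control antibody plus GSK343 (adjusted p 0.0441, 0.0423 and 0.0439). The call of Cxcl10 rested on single libraries. It was lost without replicate 1, 2, 3 or 5 of anti-CXCL10 plus GSK343 (adjusted p 0.0663, 0.0671, 0.07 and 0.107) and without replicate 2, 3 or 5 of control antibody plus GSK343 (adjusted p 0.104, 0.103 and 0.0644). Without replicate 1 of control antibody plus GSK343, all 6 members were called lower, and 0 were called without replicate 1, 2 or 5 of anti-CXCL10 plus GSK343 or replicate 3 of the control antibody. The difference of Dpp4 moved to -0.62 without replicate 1 and to -0.20 without replicate 3 of control antibody plus GSK343. With the muscle covariate or without the 3 muscle-rich libraries, 0 of the 6 passed. Cxcl10 lies at chr5:92346638-92348889 on the minus strand and overlaps Art3, as does Cxcl11. The sources used here do not state the strand setting of the authors' counting, so fragments of such overlapping genes cannot be told apart. This also holds for Stat4, Slamf7, Ctla4, Tnfrsf18, Ctsb, Tap2, Ctss and Pip5k1a below, each of which overlaps another listed gene.

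The promoters of the 2 best expressed ligands are shown for the sites through which inflammatory signals are known to act on them. These are the 250 bases before the RefSeq start (GRCm38.p6), 5′ to 3′ on the strand of the gene, at chr5:92348890-92349139 for Cxcl10 and chr5:92328080-92328329 for Cxcl9. In Cxcl10 the first capitals mark a match to the interferon-stimulated response element (ISRE), searched on both strands as GAAA, any 2 bases and GAAA again, 213 bases before the start. The second capitals in Cxcl10 and both in Cxcl9 mark matches to GGGNNTTCC, the letters used for a kappa-B element, 103 bases before the start of Cxcl10 and 130 and 42 bases before that of Cxcl9. Both strands were searched, and no match of one motif overlapped the other.
Cxcl10: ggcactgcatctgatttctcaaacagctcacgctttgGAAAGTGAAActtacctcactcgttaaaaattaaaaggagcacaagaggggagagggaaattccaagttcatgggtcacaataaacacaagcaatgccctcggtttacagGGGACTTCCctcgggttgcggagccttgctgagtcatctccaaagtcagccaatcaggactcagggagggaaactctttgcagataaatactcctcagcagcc
Cxcl9: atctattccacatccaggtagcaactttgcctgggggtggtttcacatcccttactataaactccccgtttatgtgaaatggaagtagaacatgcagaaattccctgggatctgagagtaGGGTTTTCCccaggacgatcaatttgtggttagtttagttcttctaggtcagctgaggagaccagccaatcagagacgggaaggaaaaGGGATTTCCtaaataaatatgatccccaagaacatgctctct

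The next 3 windows belong to genes called lower that carry an ISRE match, one from each of the type I interferon, interferon-gamma and antigen presentation lists. They lie at chr19:34640639-34640888 for Ifit1, chr3:142530086-142530335 for Gbp7 and chr3:95526536-95526785 for Ctss, all on the plus strand. Capitals mark the ISRE on either strand, at 104 and 85 bases before the start of Ifit1, 53 before that of Gbp7 and 21 before that of Ctss.
Ifit1: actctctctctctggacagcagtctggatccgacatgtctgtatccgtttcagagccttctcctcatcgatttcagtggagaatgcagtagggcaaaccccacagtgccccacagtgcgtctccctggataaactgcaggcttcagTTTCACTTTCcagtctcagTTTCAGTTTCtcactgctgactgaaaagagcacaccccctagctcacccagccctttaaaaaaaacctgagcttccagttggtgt
Gbp7: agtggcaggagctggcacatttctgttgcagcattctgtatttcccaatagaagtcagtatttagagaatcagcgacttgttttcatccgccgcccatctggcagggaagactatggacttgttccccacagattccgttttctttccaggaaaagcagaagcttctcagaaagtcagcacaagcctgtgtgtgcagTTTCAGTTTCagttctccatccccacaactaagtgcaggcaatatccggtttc
Ctss: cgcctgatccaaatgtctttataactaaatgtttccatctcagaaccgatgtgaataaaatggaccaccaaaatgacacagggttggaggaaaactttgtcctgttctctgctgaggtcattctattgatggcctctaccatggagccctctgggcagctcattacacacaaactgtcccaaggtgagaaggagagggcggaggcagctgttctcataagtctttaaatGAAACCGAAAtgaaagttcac

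Among all called genes with a window of this length, matched by symbol, the ISRE occurred in 57 of 656 that were lower (8.69%) and in 11 of 302 that were higher (3.64%). The share was 3.46% of the 9368 tested genes with a window and 2.98% of all 32851 windows. A gene was counted if any of its windows held the motif, so shares of genes are not on the same footing as the share of all windows. The kappa-B letters occurred in 6.71% of lower, 7.95% of higher and 7.43% of tested genes, and in 4.98% of all windows. GAGGAAGT, letters of the myeloid and B cell factor PU.1, occurred in 5.64% of lower, 3.31% of higher and 3.12% of tested genes, and in 2.44% of all windows. TTCNNNGAA, the letters of a STAT element (GAS), occurred in 9.91% of lower, 4.97% of higher and 7.25% of tested genes, and in 7.02% of all windows. TGANTCA, the letters of AP-1, occurred in 10.5%, 6.95%, 5.99% and 6.75% of the same sets. A match is a description of the letters in this window and not evidence of binding, and these shares were not tested.

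The interferon-gamma chain, from cytokine to signal transducers, had 5 of 13 tested members lower and none higher (median -0.33). Ifng, the gene of interferon-gamma, had 2.99, 4.9, 4.53, 3.46 and 2.14 FPKM in the 5 anti-CXCL10 plus GSK343 libraries, against 5.36, 11.5, 22.7, 5.7 and 8.01 FPKM in the 5 control antibody plus GSK343 libraries (log2 change -1.19 ± 0.29, adjusted p = 0.015). Each anti-CXCL10 plus GSK343 library was below each control antibody plus GSK343 library, and the call held in all 10 fits that left out 1 library but not in a fit of these 2 groups alone (adjusted p = 0.062). Stat4, which transmits interleukin-12 signals that induce Ifng, had 3.29, 1.69, 2.79, 1.53 and 1.43 FPKM with anti-CXCL10 plus GSK343, against 3.49, 8.17, 5.06, 5.27 and 5.16 FPKM with control antibody plus GSK343 (log2 change -1.03 ± 0.21, adjusted p = 0.00672). Socs1, the feedback inhibitor of interferon receptors, fell with a log2 change of -1.06 ± 0.24, adjusted p = 0.0124, also without overlap. The count was 3 without replicate 1 of anti-CXCL10 plus GSK343 or without replicate 2, 3 or 4 of control antibody plus GSK343. The count was 0 both with the muscle covariate and without the 3 muscle-rich libraries, with medians of -0.33 and -0.41.

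Genes induced by interferon-gamma had 11 of 32 tested members lower and none higher, with a median of -0.58. Gbp7, a guanylate-binding protein, was at 29, 35.1, 38.4, 30.6 and 34.7 FPKM with anti-CXCL10 plus GSK343, against 44.8, 78.9, 73.1, 49.6 and 54.8 FPKM with control antibody plus GSK343 (log2 change -0.8 ± 0.16, adjusted p = 0.00508). For Serpina3g, a serine protease inhibitor, the values were 27.4, 35.7, 39.1, 40.9 and 30.1 FPKM with anti-CXCL10 plus GSK343, against 41.2, 135, 130.2, 63.4 and 80.2 FPKM with control antibody plus GSK343 (log2 change -1.23 ± 0.28, adjusted p = 0.0117). In both genes the 2 groups did not overlap. The count was 21 without replicate 1 of control antibody plus GSK343, 6 without its replicate 2 or 3, 7 without replicate 1 and 6 without replicate 5 of anti-CXCL10 plus GSK343. It was 0 with the muscle covariate and 1 without the 3 muscle-rich libraries.

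Genes of the type I interferon response had 18 of 36 tested members lower and none higher, with a median of -0.70, and all 36 changes were negative. Ifit1, which binds viral RNA, had 3.36, 4.36, 3.05, 3.64 and 3.76 FPKM in the 5 anti-CXCL10 plus GSK343 libraries, against 7.86, 10.2, 9.21, 6.44 and 6.49 FPKM in the 5 control antibody plus GSK343 libraries (log2 change -0.95 ± 0.17, adjusted p = 0.00303). The 5 anti-CXCL10 plus GSK343 libraries stayed below the control antibody plus GSK343 libraries, and Ifit1 also passed with the muscle covariate (adjusted p = 0.0476) and without the 3 muscle-rich libraries (adjusted p = 0.0199). Samhd1, which depletes nucleotides and so restricts viruses, averaged 50.7 ± 5.08 FPKM with anti-CXCL10 plus GSK343 and 94.4 ± 22.7 FPKM with control antibody plus GSK343 (log2 change -0.86 ± 0.17, adjusted p = 0.00535). Rtp4, a transmembrane protein induced by type I interferon, averaged 12.5 ± 1.19 FPKM with anti-CXCL10 plus GSK343 and 21.6 ± 4.51 FPKM with control antibody plus GSK343 (log2 change -0.72 ± 0.16, adjusted p = 0.0107). The count changed by over 1.5 times without replicate 1 or 5 of anti-CXCL10 plus GSK343 (11 and 9) and without replicate 2 or 3 of control antibody plus GSK343 (8 each). It was 1 with the muscle covariate and 2 without the 3 muscle-rich libraries, with medians of -0.58 and -0.75.

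**Figure D2:**
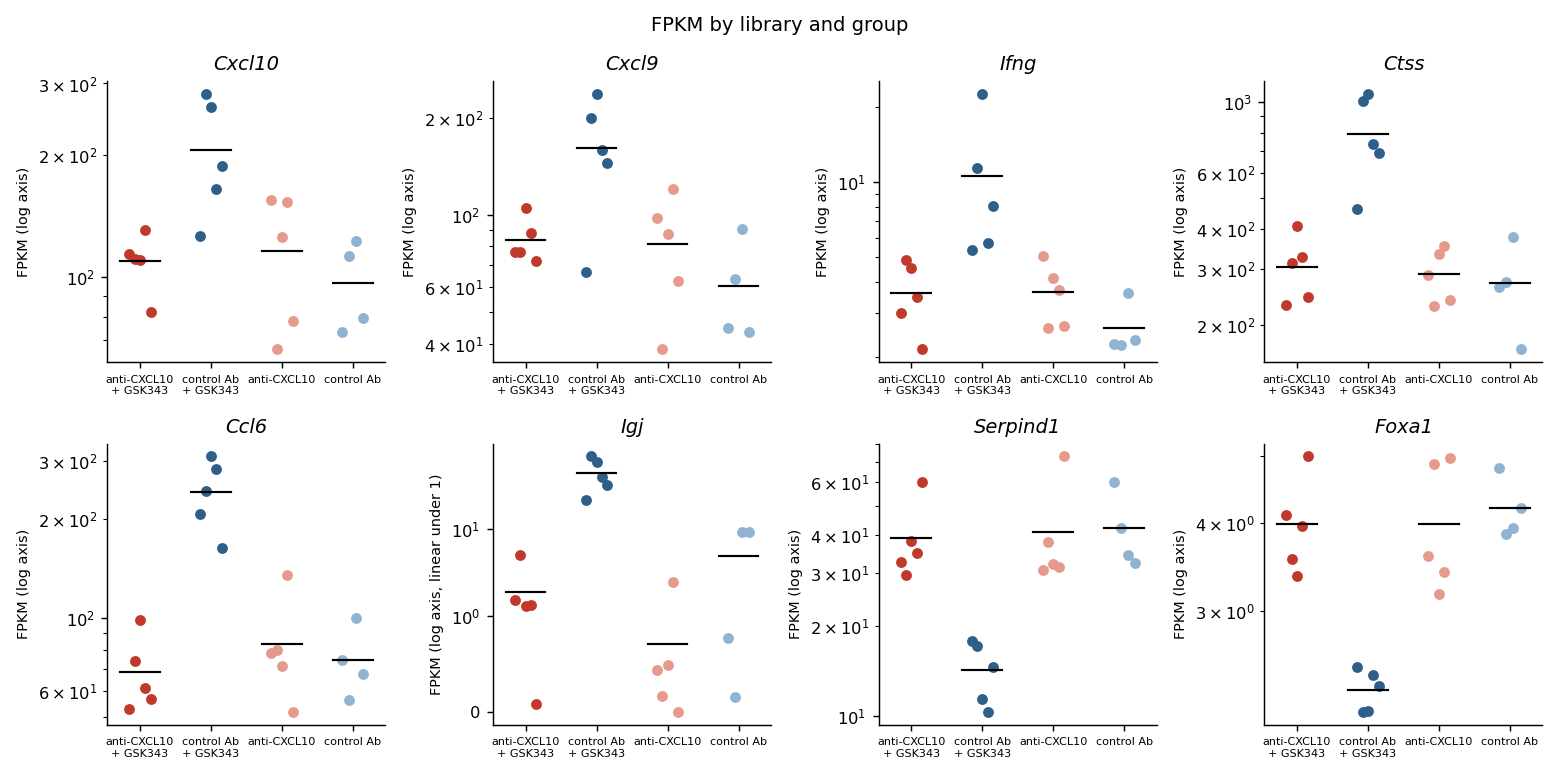
FPKM of 8 genes in every library (points, log axis; for Igj linear below 1) with the group mean as a line, for anti-CXCL10 plus GSK343, control antibody plus GSK343, anti-CXCL10 alone and control antibody alone. Ifng, Ctss, Ccl6 and Igj are lower, and Serpind1 and Foxa1 higher, in every anti-CXCL10 plus GSK343 library than in every control antibody plus GSK343 library, while Cxcl10 and Cxcl9 overlap.

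T cell markers had 19 of 28 tested members lower and none higher, with a median of -0.73. Cd2, an adhesion receptor of T and NK cells, was at 5.03, 5.87, 6.56, 7.34 and 4.09 FPKM with anti-CXCL10 plus GSK343, against 8.21, 12, 25, 11.5 and 14 FPKM with control antibody plus GSK343 (log2 change -1.09 ± 0.21, adjusted p = 0.00457). For Lck, the kinase of the T cell receptor, the values were 5.14, 8.5, 6.54, 7.9 and 6.02 FPKM with anti-CXCL10 plus GSK343, against 12.5, 15.5, 20.8, 12 and 13.8 FPKM with control antibody plus GSK343 (log2 change -1.02 ± 0.20, adjusted p = 0.00562). For Cd2 and Lck, all anti-CXCL10 libraries were below all control antibody libraries. The adaptor Lat, which relays signals of the T cell receptor, averaged 5.93 ± 1.9 FPKM with anti-CXCL10 plus GSK343 and 13.8 ± 3.53 FPKM with control antibody plus GSK343 (log2 change -1.11 ± 0.22, adjusted p = 0.00508). Trbc2, a constant segment of the T cell receptor beta chain, had 31.4, 34.7, 25.4, 41.5 and 19 FPKM with anti-CXCL10 plus GSK343, against 39.2, 75.9, 72.1, 55.1 and 78.8 FPKM with control antibody plus GSK343, with replicate 1 of the control antibody inside the anti-CXCL10 range (log2 change -1.06 ± 0.22, adjusted p = 0.00687). The count was 11 without replicate 5 of anti-CXCL10 plus GSK343, and 11 or 12 when replicate 3 or 5 of control antibody plus GSK343 was left out. No T cell marker passed with the muscle covariate or without the 3 muscle-rich libraries, where the medians were -0.56 and -0.44.

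NK cell markers had 7 of 13 tested members lower and none higher (median -0.83), and cytotoxic effectors 6 of 16 and none higher (median -0.84). Fcer1g, a signalling chain shared by NK and myeloid receptors, had 94.4, 109, 85, 103 and 81.9 FPKM in the 5 anti-CXCL10 plus GSK343 libraries, against 187, 185, 173, 175 and 269.7 FPKM in the 5 control antibody plus GSK343 libraries (log2 change -1.04 ± 0.18, adjusted p = 0.00278). Fcer1g fell without overlap. Klrd1, the CD94 receptor chain of NK cells, was at 5.62, 9.68, 9.62, 8.78 and 6.05 FPKM with anti-CXCL10 plus GSK343, against 8.91, 21.5, 28.7, 15.7 and 21.9 FPKM with control antibody plus GSK343 (log2 change -1.12 ± 0.26, adjusted p = 0.0116). Here replicate 1 of the control antibody lay among the anti-CXCL10 libraries. Among effectors, the granzymes Gzmc and Gzma were called lower, with log2 changes of -1.21 ± 0.24, adjusted p = 0.00562 and -1.11 ± 0.27, adjusted p = 0.0168. The chemokine Ccl5, which draws T cells, averaged 76.2 ± 23.9 FPKM with anti-CXCL10 plus GSK343 and 182 ± 78 FPKM with control antibody plus GSK343 (log2 change -1.19 ± 0.28, adjusted p = 0.0145). The killing molecules Prf1, the pore-forming perforin, and Gzmb, granzyme B, missed the threshold, with log2 changes of -0.84 ± 0.34, adjusted p = 0.125 and -0.92 ± 0.29, adjusted p = 0.0557. Gzmb passed with median-ratio scaling (adjusted p = 0.0495) and quantile normalization (0.0481). Both were called without replicate 1 (adjusted p 0.0446 for Prf1 and 0.0143 for Gzmb) and without replicate 4 of control antibody plus GSK343 (0.0484 and 0.0455). The NK count was 4 without replicate 3, and the effector count 11 without replicate 1, of control antibody plus GSK343. In either list 0 members passed with the muscle covariate, and without the 3 muscle-rich libraries 1 NK marker and 0 effectors did.

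The SLAM family, receptors by which lymphocytes and myeloid cells contact each other, had 8 of 10 tested members lower and none higher, with a median of -0.89. For Ly9 the values were 2.12, 3.03, 2.39, 2.87 and 2.21 FPKM with anti-CXCL10 plus GSK343, against 4.76, 6.59, 8.98, 7.89 and 8.06 FPKM with control antibody plus GSK343 (log2 change -1.21 ± 0.15, adjusted p = 0.000782). Cd48 had 10.4, 10.1, 10.4, 9.96 and 8.53 FPKM in the 5 anti-CXCL10 plus GSK343 libraries, against 13.9, 22, 25.6, 19.6 and 22 FPKM in the 5 control antibody plus GSK343 libraries (log2 change -0.97 ± 0.13, adjusted p = 0.000845). Neither gene showed any overlap between the groups. Slamf7 was at 0.547, 2.35, 3.44, 1.81 and 1.13 FPKM with anti-CXCL10 plus GSK343, against 5.1, 6.17, 8.15, 6.78 and 6.05 FPKM with control antibody plus GSK343 (log2 change -1.46 ± 0.29, adjusted p = 0.00559). Slamf7 marks cytotoxic lymphocytes and plasma cells, and its 5 anti-CXCL10 libraries were all below the control antibody libraries. The count was 2 with the muscle covariate and 3 without the 3 muscle-rich libraries. Ly9 and Cd48 passed in both of these fits, with adjusted p of 0.0202 and 0.0206 for Ly9 and of 0.0255 and 0.0221 for Cd48. Ly9 overlaps Cd244 in the table's coordinates.

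Checkpoint receptors and ligands had 5 of 13 tested members lower and none higher (median -0.62). For Ctla4 the values were 1.65, 2.78, 3.55, 2.69 and 2.23 FPKM with anti-CXCL10 plus GSK343, against 4.53, 9.83, 15.4, 5.34 and 5.21 FPKM with control antibody plus GSK343 (log2 change -1.23 ± 0.27, adjusted p = 0.00989). The 2 groups did not overlap. Cd200r1, an inhibitory receptor of myeloid cells, averaged 3.56 ± 0.844 FPKM with anti-CXCL10 plus GSK343 and 7 ± 0.781 FPKM with control antibody plus GSK343 (log2 change -0.83 ± 0.12, adjusted p = 0.0014) and kept its call with the muscle covariate and without the 3 muscle-rich libraries. Pdcd1lg2, the second ligand of PD-1, averaged 15.2 ± 1.65 FPKM with anti-CXCL10 plus GSK343 and 29.7 ± 8.12 FPKM with control antibody plus GSK343 (log2 change -0.88 ± 0.16, adjusted p = 0.00383). Havcr2, also called TIM-3, had a log2 change of -0.86 ± 0.19, adjusted p = 0.01. The count was 8 without replicate 1 of control antibody plus GSK343, and 1 with the muscle covariate as well as without the 3 muscle-rich libraries. Among regulatory T cell and costimulation genes 6 of 9 were lower and none higher (median -0.87). Tnfrsf18, known as GITR, averaged 3.87 ± 0.913 FPKM with anti-CXCL10 plus GSK343 and 8.91 ± 2.42 FPKM with control antibody plus GSK343 (log2 change -1.01 ± 0.17, adjusted p = 0.00211), and Cd86, a ligand of CD28 and CTLA-4, averaged 5.18 ± 0.724 FPKM with anti-CXCL10 plus GSK343 and 10.4 ± 2.09 FPKM with control antibody plus GSK343 (log2 change -0.87 ± 0.16, adjusted p = 0.00352). Of these 9 genes, 0 passed with the muscle covariate and 1 without the 3 muscle-rich libraries.

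The largest decreases were in genes of antibody-producing cells. B and plasma cell markers had 7 of 11 tested members lower and 1 higher, with a median of -2.49. Igj had 1.5, 5.07, 1.29, 1.34 and 0.0839 FPKM in the 5 anti-CXCL10 plus GSK343 libraries, against 21.8, 69.1, 59.3, 39.6 and 32.3 FPKM in the 5 control antibody plus GSK343 libraries (log2 change -4.1 ± 0.59, adjusted p = 0.0014). Igj encodes the chain that joins IgM and IgA into polymers, and its lowest control antibody library was above its highest anti-CXCL10 library. Igkc was at 19, 67.1, 28.4, 18.5 and 2.02 FPKM with anti-CXCL10 plus GSK343, against 123, 353, 464, 726 and 722 FPKM with control antibody plus GSK343 (log2 change -4.43 ± 0.96, adjusted p = 0.00899). For Ighm the values were 8.43, 18.5, 6.55, 7.51 and 4.99 FPKM with anti-CXCL10 plus GSK343, against 104, 360.2, 397, 45.7 and 36.1 FPKM with control antibody plus GSK343 (log2 change -3.7 ± 0.73, adjusted p = 0.00567). Neither constant region overlapped between the groups. Mzb1, a chaperone of plasma cells, was listed at 0 in 3 anti-CXCL10 plus GSK343 libraries and at 0.637 and 0.281 FPKM in replicates 2 and 3, against 0.422, 3.29, 3.64, 3.36 and 3.14 FPKM with control antibody plus GSK343 (log2 change -1.58 ± 0.28, adjusted p = 0.00318). Without GSK343, Igj averaged 0.71 ± 0.999 FPKM with anti-CXCL10 and 4.87 ± 5.1 FPKM with control antibody. The single higher gene lost its call without replicate 5 of anti-CXCL10 plus GSK343 or replicate 3 of control antibody plus GSK343. Among B and plasma cell markers 1 passed with the muscle covariate, and without the 3 muscle-rich libraries 3 did, with medians of -1.31 and -1.09. Igj passed in both fits (adjusted p of 0.0378 and 0.024).

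Macrophage and monocyte markers had 24 of 34 tested members lower and none higher, with a median of -0.76. At 20 of the 34, called or not, all anti-CXCL10 libraries were below all control antibody libraries, against 4.65% of all tested genes. Aif1 had 44.2, 41.1, 36.2, 43.3 and 31.5 FPKM in the 5 anti-CXCL10 plus GSK343 libraries, against 79.2, 82.1, 76.6, 76.2 and 80.6 FPKM in the 5 control antibody plus GSK343 libraries (log2 change -1.0 ± 0.15, adjusted p = 0.0014). Laptm5 was at 42.7, 53, 51, 58.7 and 42.2 FPKM with anti-CXCL10 plus GSK343, against 73.4, 95.5, 108, 92.9 and 105 FPKM with control antibody plus GSK343 (log2 change -0.92 ± 0.14, adjusted p = 0.00171). Both genes fell in every library relative to every control antibody library. Ctsb, a lysosomal protease abundant in macrophages, had a smaller log2 change of -0.57 ± 0.10, adjusted p = 0.00274 on means of 139.7 ± 8.13 FPKM with anti-CXCL10 plus GSK343 and 208 ± 16.5 FPKM with control antibody plus GSK343. Ly86, which partners the toll-like receptor homologue CD180, averaged 42.5 ± 3.77 FPKM with anti-CXCL10 plus GSK343 and 73.3 ± 9.7 FPKM with control antibody plus GSK343 (log2 change -0.77 ± 0.13, adjusted p = 0.00274). Aif1 kept its call with the muscle covariate (adjusted p = 0.0371) and without the 3 muscle-rich libraries (0.0206), as did Laptm5 (0.0397 and 0.041). In all, 2 of the 34 passed with the covariate and 4 without those libraries, and the medians were -0.58 and -0.60.

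Genes of macrophage polarization had 11 of 21 tested members lower and 1 higher (median -0.93). For Nos2 the values were 1.21, 4.44, 6.42, 3.43 and 1.49 FPKM with anti-CXCL10 plus GSK343, against 4.96, 21.9, 36.2, 12 and 12.4 FPKM with control antibody plus GSK343 (log2 change -1.96 ± 0.45, adjusted p = 0.0117). Nos2 makes nitric oxide in inflammatory macrophages, and 1 anti-CXCL10 library exceeded the lowest control antibody library. Il10, an anti-inflammatory cytokine, had 0.334, 0.373, 0.574, 0.244 and 0.119 FPKM with anti-CXCL10 plus GSK343, against 2.04, 1.37, 1.73, 1.34 and 1.8 FPKM with control antibody plus GSK343 (log2 change -1.0 ± 0.22, adjusted p = 0.00951). Irg1, the enzyme that makes itaconate in activated macrophages, averaged 2.54 ± 0.789 FPKM with anti-CXCL10 plus GSK343 and 8.93 ± 4.67 FPKM with control antibody plus GSK343 (log2 change -1.39 ± 0.30, adjusted p = 0.00805). Spp1 had 296, 295, 359, 281 and 283 FPKM in the 5 anti-CXCL10 plus GSK343 libraries, against 237, 192, 185, 183 and 232 FPKM in the 5 control antibody plus GSK343 libraries (log2 change 0.56 ± 0.12, adjusted p = 0.00778). Spp1, osteopontin, was the 1 member called higher, and the groups did not overlap. The count of lower members was 4 or 5 without replicate 1, 2, 4 or 5 of anti-CXCL10 plus GSK343 or replicate 2, 3 or 4 of control antibody plus GSK343. In the 2 fits that allow for muscle 0 members passed. Myeloid C-type lectins, pattern receptors of the same cells, had 10 of 14 tested members lower and none higher (median -0.92). Clec4a1 was at 5.33, 8.43, 8.38, 5.44 and 4.96 FPKM with anti-CXCL10 plus GSK343, against 13.4, 15.2, 16, 13.8 and 23 FPKM with control antibody plus GSK343 (log2 change -1.21 ± 0.19, adjusted p = 0.00197). Of the 14, 4 passed with the covariate and 3 without the 3 libraries, Clec4a1 in both (adjusted p of 0.0378 and 0.0324).

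**Figure D3:**
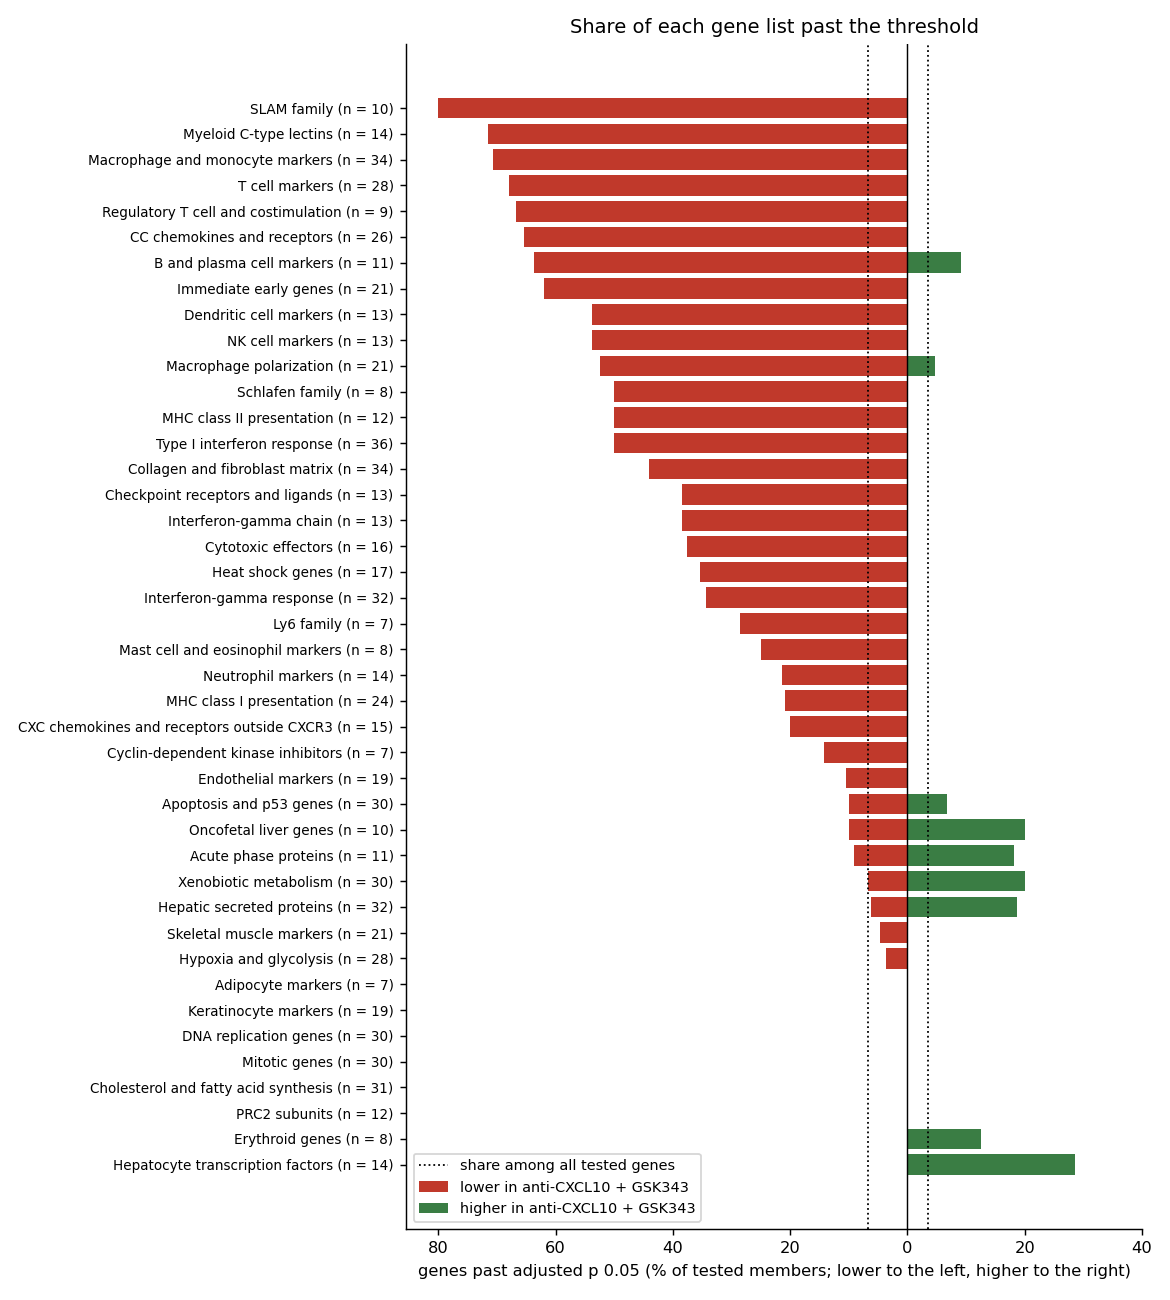
Share of the tested members of 42 gene lists that passed an adjusted p of 0.05, lower to the left and higher to the right (percent), in anti-CXCL10 plus GSK343 against control antibody plus GSK343; dotted lines mark 6.64% and 3.48%, the shares over all tested genes. Lists of immune cells, CC chemokines and immediate early genes extend to the left, and PRC2, mitotic and DNA replication lists have no bar. Liver lists extend to the right, and all of them except hepatocyte transcription factors also to the left.

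CC chemokines and their receptors had 17 of 26 tested members lower and none higher, with a median of -0.94. For Ccl6 the values were 52.9, 73.7, 98.2, 60.9 and 56.7 FPKM with anti-CXCL10 plus GSK343, against 206, 243, 309, 283 and 163 FPKM with control antibody plus GSK343 (log2 change -1.8 ± 0.23, adjusted p = 0.000845). Ccl7 had 13.8, 16, 11.4, 10.8 and 9.78 FPKM in the 5 anti-CXCL10 plus GSK343 libraries, against 56.5, 48.2, 47.9, 38.6 and 31 FPKM in the 5 control antibody plus GSK343 libraries (log2 change -1.76 ± 0.28, adjusted p = 0.00207). Ccl8 was at 91.7, 104, 116, 105 and 71.7 FPKM with anti-CXCL10 plus GSK343, against 300.3, 455, 472, 195 and 219 FPKM with control antibody plus GSK343 (log2 change -1.67 ± 0.30, adjusted p = 0.0034). All 3 chemokines attract monocytes or other leukocytes, and none overlapped between the groups. For Ccl11 the values were 2.74, 1.91, 2.83, 2.01 and 1.6 FPKM with anti-CXCL10 plus GSK343, against 5.35, 20.9, 31.4, 13.5 and 5.86 FPKM with control antibody plus GSK343 (log2 change -2.08 ± 0.45, adjusted p = 0.00814). The count was 11 without replicate 3 of control antibody plus GSK343. It was 3 with the muscle covariate and 5 without the 3 muscle-rich libraries, with Ccl6 (adjusted p of 0.0225 and 0.0111), Ccl7 (0.0378 and 0.0157) and Ccl8 (0.0397 and 0.0164) in both. Of 15 CXC chemokines and receptors outside the CXCR3 axis, 3 were lower, and the count was 1 without replicate 5 of anti-CXCL10 plus GSK343 or replicate 3 of control antibody plus GSK343. Among them was Cxcl16, the ligand of CXCR6, with a log2 change of -0.69 ± 0.14, adjusted p = 0.00703; it overlaps Zmynd15. No member of this list passed with the muscle covariate or without the 3 muscle-rich libraries, where the adjusted p of Cxcl16 was 0.113 and 0.0609. Chemokines of 1 cluster are similar in sequence, and the treatment of fragments that fit several of them is not stated, so their single values are uncertain.

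Some genes of antigen presentation were also lower. Genes of MHC class II presentation had 6 of 12 tested members lower and none higher (median -0.70), and those of MHC class I presentation 5 of 24 and none higher (median -0.36). Ctss had 231, 313, 409, 328 and 245 FPKM in the 5 anti-CXCL10 plus GSK343 libraries, against 462, 1004, 1059, 736 and 690.5 FPKM in the 5 control antibody plus GSK343 libraries (log2 change -1.34 ± 0.23, adjusted p = 0.00278). Ctss is the protease that trims the invariant chain from MHC class II, and all of its anti-CXCL10 libraries were below all control antibody libraries. Ifi30, a thiol reductase of the antigen-processing compartment, averaged 117 ± 7.82 FPKM with anti-CXCL10 plus GSK343 and 195 ± 22.1 FPKM with control antibody plus GSK343 (log2 change -0.73 ± 0.14, adjusted p = 0.00452). Tap2, a subunit of the peptide transporter for MHC class I, averaged 30.6 ± 5.14 FPKM with anti-CXCL10 plus GSK343 and 48.6 ± 5.9 FPKM with control antibody plus GSK343 (log2 change -0.66 ± 0.14, adjusted p = 0.00902). The class II count was 2 or 3 without replicate 1 or 5 of anti-CXCL10 plus GSK343 or replicate 2, 3 or 5 of control antibody plus GSK343. The class I count was 1 or 2 without replicate 1, 2, 3 or 5 of anti-CXCL10 plus GSK343 or replicate 2, 3 or 5 of the control antibody, and 9 without its replicate 1. In both fits that allow for muscle, 0 members of either list passed.

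Immediate early genes, which cells switch on within minutes of a stimulus, had 13 of 21 tested members lower and none higher (median -0.68). At 12 of the 21, called or not, all anti-CXCL10 libraries were below all control antibody libraries, against 4.65% of all tested genes. Fosb was at 3.34, 1.73, 2.09, 2.55 and 2.85 FPKM with anti-CXCL10 plus GSK343, against 17.4, 10.7, 21.5, 10.2 and 16 FPKM with control antibody plus GSK343 (log2 change -2.17 ± 0.43, adjusted p = 0.00578). For Atf3 the values were 18.6, 17.3, 16, 19.2 and 13.7 FPKM with anti-CXCL10 plus GSK343, against 48.6, 53.4, 68, 38.7 and 35.1 FPKM with control antibody plus GSK343 (log2 change -1.44 ± 0.24, adjusted p = 0.00228). Zfp36 had 41.7, 34.9, 30.7, 36.3 and 26.1 FPKM in the 5 anti-CXCL10 plus GSK343 libraries, against 78.3, 86.4, 92.5, 71.5 and 72.4 FPKM in the 5 control antibody plus GSK343 libraries (log2 change -1.23 ± 0.20, adjusted p = 0.00211). Fosb is a subunit of the AP-1 transcription factor, Atf3 a stress-induced repressor and Zfp36 a protein that destabilises cytokine mRNAs, and all 3 were without overlap. Of the 21, 4 passed with the muscle covariate and without the 3 muscle-rich libraries 4 did, Atf3 and Zfp36 in both fits (adjusted p of 0.0381 and 0.0199, and of 0.0365 and 0.0265). Heat shock genes had 6 of 17 tested members lower and none higher (median -0.25). Their leading gene was Hspb1, a small chaperone, with 5.29, 5.78, 3.03, 4.86 and 4.36 FPKM with anti-CXCL10 plus GSK343, against 12.3, 11.4, 16, 47.4 and 20.002 FPKM with control antibody plus GSK343 (log2 change -1.81 ± 0.36, adjusted p = 0.00591). Its highest value, in replicate 4 of the control antibody, came from the library with the highest muscle score. Replicates 1 and 2 of the control antibody, within the anti-CXCL10 muscle range, were also above all anti-CXCL10 libraries (12.3 and 11.4 FPKM). The part of muscle was not tested, and 0 heat shock genes passed with the muscle covariate or without the 3 muscle-rich libraries.

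Collagens and fibroblast matrix genes had 15 of 34 tested members lower and none higher (median -0.69). Ogn was at 0.397, 1.07, 1, 0.455 and 0.507 FPKM with anti-CXCL10 plus GSK343, against 2.55, 2.2, 11.8, 8.54 and 14.5 FPKM with control antibody plus GSK343 (log2 change -2.15 ± 0.35, adjusted p = 0.00224). For Lum the values were 2.49, 4.95, 5.2, 1.45 and 2.74 FPKM with anti-CXCL10 plus GSK343, against 6.43, 10.5, 13, 27.4 and 19.97 FPKM with control antibody plus GSK343 (log2 change -1.85 ± 0.39, adjusted p = 0.00726). Col1a2 had 82.1, 109, 126, 72.7 and 109 FPKM in the 5 anti-CXCL10 plus GSK343 libraries, against 147, 149, 218, 256 and 249 FPKM in the 5 control antibody plus GSK343 libraries (log2 change -1.01 ± 0.22, adjusted p = 0.00778). Ogn and Lum are small proteoglycans that space collagen fibrils, Col1a2 is a chain of type I collagen, and each was without overlap; Ogn overlaps Cenpp. Clec3b, which encodes the plasminogen-binding tetranectin, averaged 1.52 ± 0.699 FPKM with anti-CXCL10 plus GSK343 and 13.7 ± 8.09 FPKM with control antibody plus GSK343 (log2 change -2.35 ± 0.45, adjusted p = 0.00481), and Dpt, a dermal matrix protein, averaged 2.63 ± 1.73 FPKM with anti-CXCL10 plus GSK343 and 15.1 ± 8.65 FPKM with control antibody plus GSK343 (log2 change -2.07 ± 0.40, adjusted p = 0.00508). The matrix score of the libraries was 4.49, 4.68, 4.88, 4.43 and 4.63 with anti-CXCL10 plus GSK343, against 4.69, 5.21, 5.59, 5.68 and 5.49 with control antibody plus GSK343. The library highest in muscle markers, replicate 4 of the control antibody, also had the highest matrix score. Within anti-CXCL10 plus GSK343, replicates 3 and 4 were highest in muscle markers, at nearly the same score (2.52 and 2.53). Replicate 3 had the highest matrix score of that group (4.88) and replicate 4 the lowest (4.43). The count was 25 without replicate 1 of control antibody plus GSK343. The count was 0 with the muscle covariate and 1 without the 3 muscle-rich libraries, with medians of -0.40 and -0.29.

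Most of the called members of the liver lists were higher. Hepatocyte transcription factors had 4 of 14 tested members higher and none lower, with a median of 0.29. Foxa1 was at 4.12, 3.56, 3.36, 3.96 and 4.98 FPKM with anti-CXCL10 plus GSK343, against 2.5, 2.15, 2.16, 2.43 and 2.35 FPKM with control antibody plus GSK343 (log2 change 0.58 ± 0.11, adjusted p = 0.00448). Foxa1 drives hepatocyte genes, and it was higher in every anti-CXCL10 library than in every control antibody library. Secreted liver proteins had 6 of 32 tested members higher and 2 lower, with a median of 0.63. F7, a lower one, had a log2 change of -1.31 (adjusted p = 0.0183). It lost its call without replicate 2 or 3 of control antibody plus GSK343 and with the muscle covariate (adjusted p = 0.0864). Without the 3 muscle-rich libraries F7 passed (adjusted p = 0.0385). For Serpind1 the values were 32.6, 29.5, 38.3, 34.8 and 60.04 FPKM with anti-CXCL10 plus GSK343, against 17.8, 17.1, 11.5, 10.4 and 14.6 FPKM with control antibody plus GSK343 (log2 change 1.37 ± 0.24, adjusted p = 0.00303). Alb had 2648, 2980.5, 3128, 3024 and 4279 FPKM in the 5 anti-CXCL10 plus GSK343 libraries, against 2401, 2386, 2326, 1819 and 2149.6 FPKM in the 5 control antibody plus GSK343 libraries (log2 change 0.52 ± 0.12, adjusted p = 0.0128). Serpind1 is the thrombin inhibitor heparin cofactor II and overlaps Pi4ka, and Alb is serum albumin; in neither did the groups overlap. Acute phase proteins had 2 of 11 tested members higher and 1 lower (median 0.28). Lbp, a higher one that binds bacterial lipopolysaccharide, averaged 252 ± 12.2 FPKM with anti-CXCL10 plus GSK343 and 160.2 ± 26.7 FPKM with control antibody plus GSK343 (log2 change 0.66 ± 0.12, adjusted p = 0.00401). The higher count was 1 without replicate 1, 3 or 5 of anti-CXCL10 plus GSK343 or replicate 3, 4 or 5 of the control antibody. The lower count was 0 without replicate 1, 2, 4 or 5 of anti-CXCL10 plus GSK343 or replicate 3, 4 or 5 of the control antibody. With the muscle covariate 0 acute phase proteins passed, and without the 3 muscle-rich libraries 1 passed as higher. The albumin transcript, a defining marker of hepatocytes, was thus abundant in all 10 libraries, as the hepatoma label implies.

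The hepatocyte factor count was 2 without replicate 5 of anti-CXCL10 plus GSK343 or replicate 3 of control antibody plus GSK343. The count of higher secreted proteins was 3 without replicate 5 of anti-CXCL10 plus GSK343 or replicate 3 or 4 of the control antibody, and that of lower ones was 0 or 1 without replicate 1, 4 or 5 of anti-CXCL10 plus GSK343 or replicate 2, 3 or 4 of the control antibody. With the muscle covariate 0 members of either list passed, and without the 3 muscle-rich libraries 1 factor passed as higher and 1 secreted protein as lower. Xenobiotic metabolism had 6 of 30 tested members higher and 2 lower (median 0.28). Aldh3a2, a fatty aldehyde dehydrogenase, averaged 45.2 ± 5.89 FPKM with anti-CXCL10 plus GSK343 and 31.2 ± 3.95 FPKM with control antibody plus GSK343 (log2 change 0.52 ± 0.11, adjusted p = 0.00888), and Abcc2, the bile canaliculus exporter, averaged 55.6 ± 14.9 FPKM with anti-CXCL10 plus GSK343 and 32 ± 4.14 FPKM with control antibody plus GSK343 (log2 change 0.75 ± 0.18, adjusted p = 0.0136). The higher count was 2 or 3 without replicate 3 or 5 of anti-CXCL10 plus GSK343 or replicate 2 or 3 of the control antibody, and the lower count was 1 without replicate 1, 3, 4 or 5 of anti-CXCL10 plus GSK343 or replicate 2, 3, 4 or 5 of the control antibody. With the covariate 0 passed, and without the 3 muscle-rich libraries 1 passed as higher. Oncofetal liver genes, which are on in fetal liver and again in hepatomas, had 2 of 10 tested members higher and 1 lower (median 0.13). The higher ones were Epcam, an adhesion protein, with a log2 change of 0.55 ± 0.11, adjusted p = 0.00594, and Cd24a, a surface glycoprotein chosen after its values were seen (log2 change 0.31 ± 0.09, adjusted p = 0.0398). The higher count was 1 without replicate 1, 3 or 5 of anti-CXCL10 plus GSK343 or replicate 2, 3, 4 or 5 of control antibody plus GSK343, and 4 when replicate 1 of the control antibody was left out. In the 2 muscle fits 0 members passed. The lower member was H19, with 1.49, 1.19, 2.07, 1.78 and 1.57 FPKM with anti-CXCL10 plus GSK343, against 4.34, 3.17, 5.74, 13.1 and 3.57 FPKM with control antibody plus GSK343 (log2 change -1.27 ± 0.29, adjusted p = 0.0124). H19 is also a transcript of muscle, and its highest value was in the library with the highest muscle score. Control antibody replicates 1 and 2, whose muscle scores lay within the anti-CXCL10 range, were also above all anti-CXCL10 libraries (4.34 and 3.17 FPKM). H19 passed neither with the muscle covariate (adjusted p = 0.2) nor without the 3 muscle-rich libraries (adjusted p = 0.115). The part of muscle in its difference was not tested.

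**Figure D4:**
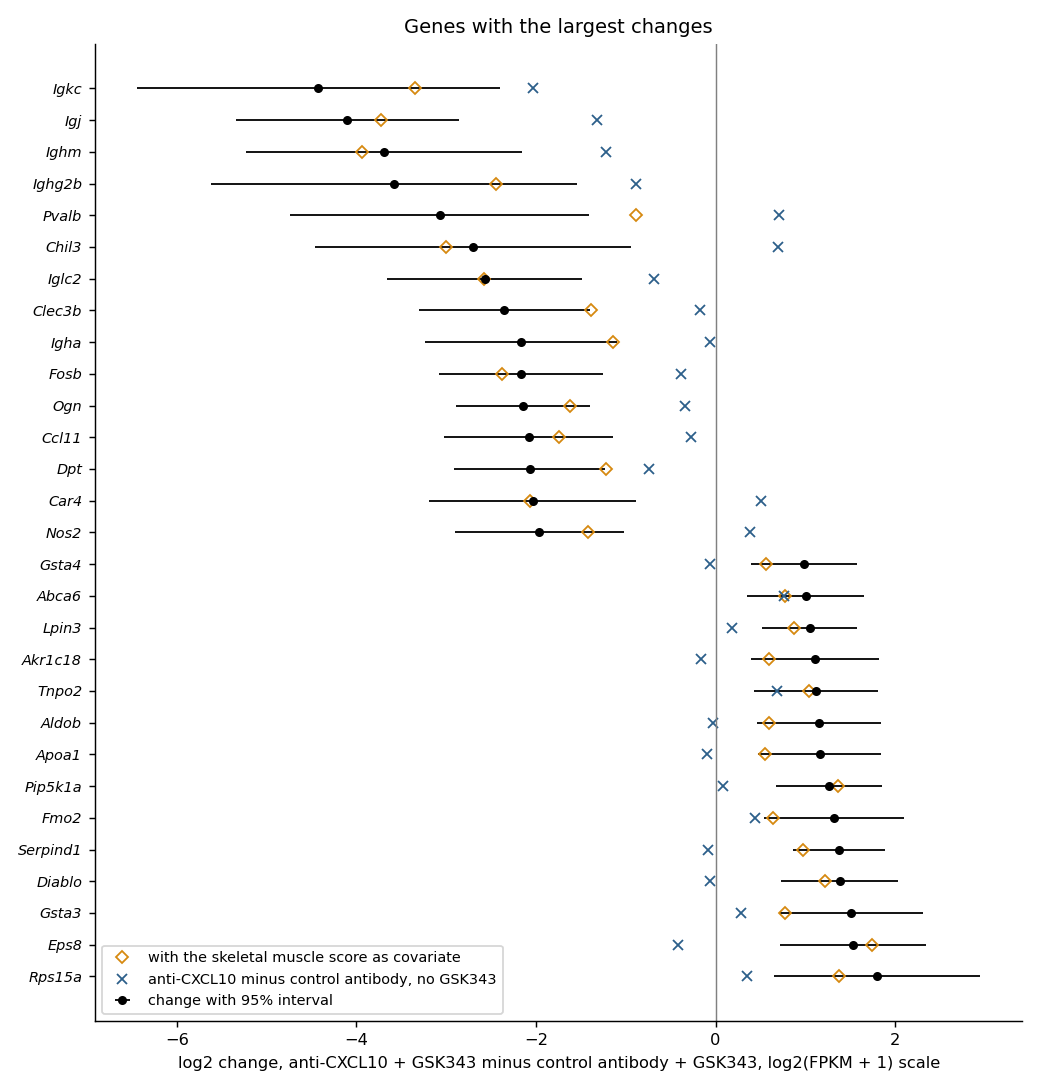
Log2 change of the 15 lower and 14 higher genes reported here with the largest changes (points with 95% intervals), the change with the skeletal muscle score as covariate (diamonds) and the change between the antibodies without GSK343 (crosses). Igj changed by -4.10 and Serpind1 by 1.37 with GSK343, and their crosses lie at -1.32 and -0.08.

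Of the 15 genes with the largest decreases, 11 kept their call in all 10 fits that left out 1 library, and 4 lost it in at least 1; of the 14 reported here with the largest increases, 5 kept it and 9 did not. The increases that held included genes outside the liver lists. Eps8 was at 3, 11.7, 14.5, 9.51 and 11.4 FPKM with anti-CXCL10 plus GSK343, against 1.46, 2.02, 2.72, 4.24 and 2.43 FPKM with control antibody plus GSK343 (log2 change 1.54 ± 0.39, adjusted p = 0.0189). Eps8 is an actin regulator, and replicate 1 of anti-CXCL10 plus GSK343 lay inside the control antibody range. For Pip5k1a the values were 24.3, 24.4, 26.8, 18.6 and 28 FPKM with anti-CXCL10 plus GSK343, against 6.96, 9.25, 8.85, 16 and 8.2 FPKM with control antibody plus GSK343 (log2 change 1.27 ± 0.28, adjusted p = 0.00953). Pip5k1a is a lipid kinase that makes the membrane phosphoinositide PIP2, and its groups did not overlap. Diablo had 23.9, 21.8, 20.6, 23.1 and 20.8 FPKM in the 5 anti-CXCL10 plus GSK343 libraries, against 12.9, 4.93, 3.76, 4.57 and 23.4 FPKM in the 5 control antibody plus GSK343 libraries (log2 change 1.38 ± 0.31, adjusted p = 0.0106). Diablo, a mitochondrial protein that frees caspases from their inhibitors, was higher apart from replicate 5 of the control antibody, which lay above 4 of the anti-CXCL10 libraries, and it missed the threshold in a fit of these 2 groups alone (adjusted p = 0.0651). Lpin3, a phosphatidate phosphatase, averaged 7.29 ± 2.48 FPKM with anti-CXCL10 plus GSK343 and 2.92 ± 0.753 FPKM with control antibody plus GSK343 (log2 change 1.05 ± 0.25, adjusted p = 0.0145). The survival factors Mcl1 and Bcl2 were lower, with log2 changes of -0.38 ± 0.07, adjusted p = 0.0034 and -0.65 ± 0.13, adjusted p = 0.00602. Their list, apoptosis and p53 genes, which also holds Diablo, had 3 of 30 tested members lower and 2 higher (median -0.04). Most of its members were thus not called, and of all tested genes 6.64% were lower and 3.48% higher. The lower count of this list was 6 without replicate 1 of control antibody plus GSK343. With the muscle covariate Eps8, Pip5k1a, Diablo and Lpin3 did not pass (adjusted p of 0.0757, 0.064, 0.113 and 0.145), while Pip5k1a and Diablo passed without the 3 muscle-rich libraries. Mcl1 and Bcl2 kept their calls with the muscle covariate and without the 3 muscle-rich libraries.

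Genes of the drug's target complex and of the cell cycle had medians near that of all genes. Of 12 PRC2 subunits 0 were called by limma (median 0.01). The subunit Phf1 was the 1 gene with an unadjusted p under 0.05, with a log2 change of -0.27 ± 0.09, adjusted p = 0.0584, and it passed with median-ratio scaling (adjusted p = 0.0467). Ezh2 was at 27.8, 29.4, 30.2, 24.7 and 23.3 FPKM with anti-CXCL10 plus GSK343, against 28.8, 26.7, 21.7, 27.1 and 22.2 FPKM with control antibody plus GSK343 (log2 change 0.1 ± 0.10, adjusted p = 0.574). The Ezh2 values of the 2 groups overlapped, and the 95% interval of the difference ran from -0.11 to 0.30. Without the 3 muscle-rich libraries its difference was -0.04, of the opposite sign. Of 30 mitotic genes 0 were called (median 0.07), with 2 at an unadjusted p under 0.05, both higher. Of 30 DNA replication genes 0 were called (median 0.05), with 3 at an unadjusted p under 0.05, all higher, and 1 gene was called higher without replicate 2 of control antibody plus GSK343. These values do not show that proliferation was equal.

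Fewer genes passed between the antibodies in tumors without GSK343. Between anti-CXCL10 and control antibody without the drug, 2 genes passed (0.0139%), Cav1 and the unannotated Gm28062, both lower, and 979 had an unadjusted p under 0.05. Cav1, the coat protein of caveolae, averaged 3.4 ± 1.3 FPKM with anti-CXCL10 and 11.3 ± 2.95 FPKM with control antibody without GSK343 (log2 change -1.49 ± 0.23, adjusted p = 0.0244). The 955 genes called lower with GSK343 had a median difference of -0.73 there and of -0.04 without it, where 562 of them were also lower. The 501 called higher had medians of 0.40 with GSK343 and 0.09 without it, where 379 were also higher. Of the called genes, 118 had an unadjusted p under 0.05 without GSK343 with the same sign and 15 with the opposite sign. The mean of control antibody plus GSK343 was the highest of the 4 groups for 938 of the 955 genes and the lowest for 495 of the 501. Since the genes were called against that same group, this describes the 2 groups without GSK343 and is not a separate test.

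**Figure D5:**
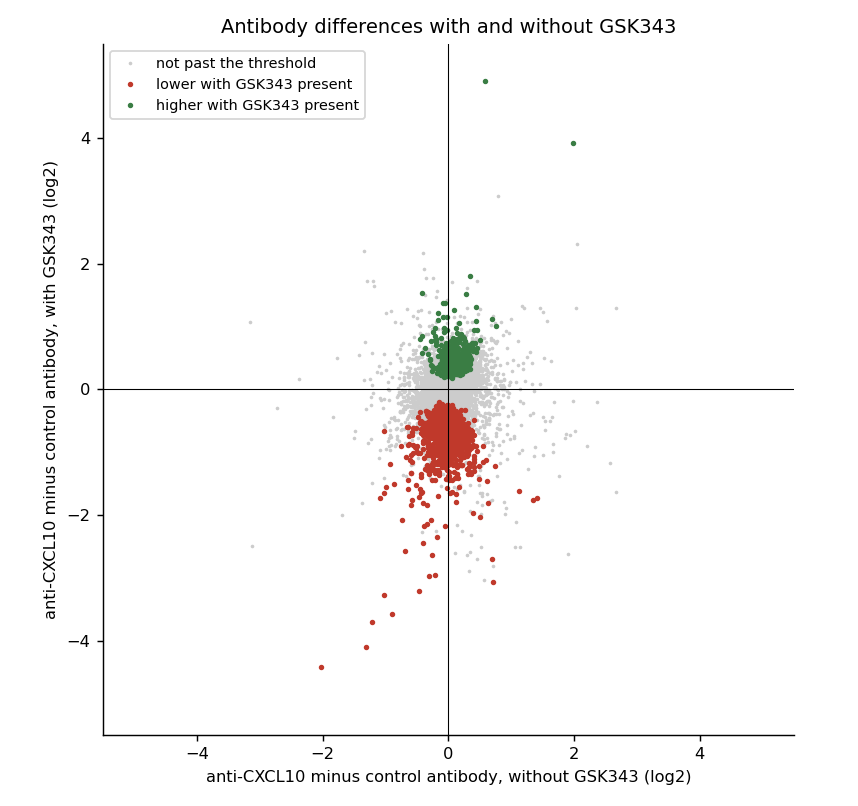
Antibody difference of each of 14385 tested genes with GSK343 (vertical axis, log2) against that without GSK343 (horizontal axis, log2), with called genes in red (955 lower) and green (501 higher). On the horizontal axis the lower genes have a median of -0.04 and the higher ones of 0.09, and single genes such as Igj (-1.32) lie far from 0.

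A direct test of the difference between the 2 antibody effects passed at 9 genes (0.0626%), all with a more negative effect in the presence of GSK343. Ly9, Cd48 and Ccl6 were described above. Ly9 had a difference of effects of -1.43 ± 0.22 (adjusted p = 0.0252), Cd48 of -1.1 ± 0.19 (adjusted p = 0.0404) and Ccl6 of -1.92 ± 0.34 (adjusted p = 0.0489). The others named here were chosen after their values were seen. Alox5ap, which presents arachidonic acid to the leukotriene pathway, had 8.1, 10.5, 9.63, 7.28 and 7.5 FPKM with anti-CXCL10 plus GSK343, against 26.1, 21.6, 24.7, 27.1 and 23.6 FPKM with control antibody plus GSK343 (difference of effects -1.38 ± 0.24 with adjusted p = 0.0459). Its groups did not overlap. Without the drug it averaged 8.66 ± 1.9 FPKM with anti-CXCL10 and 9.15 ± 3.38 FPKM with control antibody. The ion channel Trpv2, the signalling adaptor Themis2 and the guanine exchange factor Dock2 had differences of effects of -1.67 ± 0.27 with adjusted p = 0.0273, -0.97 ± 0.15 with adjusted p = 0.0252 and -0.96 ± 0.17 with adjusted p = 0.0489. The count of 9 rested on single libraries. It was 0 without replicate 1 or 5 of anti-CXCL10 plus GSK343 or replicate 2 of the control antibody plus GSK343, 5 without replicate 2 and 3 without replicate 4 of anti-CXCL10 plus GSK343, 5 without replicate 3 or 4 of the control antibody plus GSK343, and 476 without its replicate 1. It was 0 with the muscle covariate. Without the 3 muscle-rich libraries it was 1, a gene that was not among the 9. For the other genes called with GSK343, a difference from the effect without GSK343 was therefore not shown.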

How the data were processed

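Poly-A RNA of 19 tumor libraries was analysed. The authors deposited 1 table of FPKM (fragments relative to gene length and mapped total) per gene and library; the unit was read from the values. The submitters' processing notes name StringTie 1.3.3b, HTSeq 0.6.0, HISAT2 2.1.0, TopHat2 2.1.0 and Trimmomatic 0.33 and the builds mm10 and GRCm38. What each tool did, and how strand was treated, the sources used here do not say. Sequencing depth is unknown, so no counting error is given and low values are the least certain. FPKM summed to 533606 to 629679 per library, and the table held 0 columns of other samples.

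Rows of 1 gene ID were added (8 IDs, 21 rows of 14646), leaving 14633 genes. Each row already had 1 FPKM or more in at least 4 libraries. Genes with at least 1 FPKM in at least 5 libraries were tested (14385; 248 removed). Of the IDs, 99.3% were in the GENCODE M21 annotation, and coordinates of genes are those of the deposited table. The test was limma 3.58.1 on log2(FPKM + 1), with trended, robust moderation (statmod 1.5.0 in R 4.3.3), in 1 model of 4 group means over all 19 libraries, with Benjamini-Hochberg adjustment over all tested genes; the script was tested on simulated data. This scale understates the change of low genes. Errors of means are SD, and those of log2 changes SE (n = 5 per group, except n = 4 for control antibody without GSK343).

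Gene lists, members and tests were chosen with earlier results of these data known. Named genes are the CXCR3 axis with Ifng, Prf1, Gzmb and Ezh2, the 15 largest called changes each way (5 FPKM or more in the higher group; no unnamed models, pseudogenes or variable segments), and up to 4 members per list by p. Some genes that fall under this rule are not reported here. The alternatives cover 123; others are said to be chosen after their values were seen. A list's score is its mean log2(FPKM + 1). Promoter windows are RefSeq's, GRCm38.p6. Alternatives were other pseudocounts, filters, scalings and moderation, a fit of only the 2 groups, a block for replicate number, a skeletal muscle score as covariate, and leaving out libraries.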

Additional observations from a re-analysis of the deposited data

Results flagged for a closer look

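For 123 named genes, the 5 libraries of each of the 2 GSK343 groups were searched for a library set apart from the others by Dixon's test, which chance passes in about 1 of 20 groups. Of 246 gene and group pairs, 12 had one, which is near that rate. Of these 12, which share libraries and so are not independent, 5 were in replicate 5 of anti-CXCL10 plus GSK343. That library was the lowest of its group for Gzmb (6.52 FPKM), Cd48 (8.53 FPKM), Pdcd1lg2 (12.4 FPKM) and Klf6, an early response factor (31.0 FPKM), and the highest for Akr1c18, a steroid reductase (103 FPKM). In replicate 1 of anti-CXCL10 plus GSK343, Eps8 (3.0 FPKM) stood below the other 4 libraries. Cxcl11 stood apart at 2.15 FPKM in replicate 2, Spp1 at 359 FPKM in replicate 3, and Rps15a, a ribosomal protein gene with many processed copies, at 403 FPKM in replicate 4 of that group. With control antibody plus GSK343, replicate 1 was set apart by low Mzb1 (0.422 FPKM), replicate 3 by high Rps15a (656 FPKM) and replicate 5 by high Fcer1g (269.7 FPKM).

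Among the named genes, the antibody effect with GSK343 differed from that without GSK343 for 3, by the direct limma test of the difference. On the log2 scale the difference was -1.43 for Ly9 (adjusted p = 0.0252), -1.10 for Cd48 (adjusted p = 0.0404) and -1.92 for Ccl6 (adjusted p = 0.0489). All 5 anti-CXCL10 plus GSK343 libraries were below all 5 control antibody plus GSK343 libraries in each of them. With the muscle covariate, and without replicate 1 or 5 of anti-CXCL10 plus GSK343 or replicate 2 of control antibody plus GSK343, 0 genes passed this test. Without the 3 muscle-rich libraries 1 gene passed, and it was none of these 3.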

How the results depend on the processing

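The count of 1456 called genes with GSK343 was 1381 and 1423 with pseudocounts of 0.1 and 0.5, 1502 with no filter, 987 with a filter at 5 FPKM, 1484 with median-ratio scaling, 1611 with quantile normalization, 1457 without robust moderation and 1006 in a fit of the 2 groups alone. Its share of higher genes was 34.4%, against 28.5% with median-ratio scaling, 43.5% with quantile normalization and 43.6% with the 5 FPKM filter. With the skeletal muscle covariate it was 124, and without the 3 libraries highest in muscle markers 497. Leaving out 1 library gave 837 to 1829. The count without GSK343 was 2 in every alternative except the replicate block and the fit without the 3 muscle-rich libraries, where it was 0. The count of 9 genes for the difference between the antibody effects was 0 with the muscle covariate and 0 to 476 with 1 library left out. Without the 3 muscle-rich libraries it was 1, a gene that was not among the 9. Without those 3 libraries, Dpp4 (0.076) and Ezh2 (-0.041), both uncalled, changed sign. Of 112 called among 123 named genes, 97 kept their call whichever library was left out, 20 with the muscle covariate, 35 without the 3 libraries and 18 under both of these. These fits leave out libraries or add a term to the model, and estimates moved as well as their errors. The muscle score itself averaged 1.78 ± 0.69 with anti-CXCL10 plus GSK343 and 3.86 ± 1.77 with control antibody plus GSK343. The covariate and the antibody thus partly coincide, and the causes of these changes were not tested.

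Replicate numbers did not pair the 2 groups: deviations of same-numbered libraries correlated at 0.166, 0.0692, 0.225, 0.052 and -0.0261 for numbers 1 to 5, and only 1 and 3 correlated best with their own number. With the replicate number as a block, 1491 genes passed with GSK343, 0 without it and 57 for the difference, and Ackr1 (adjusted p = 0.044), Gzmb (0.0476), Tnnt3 (0.0227) and Casq1 (0.0267) passed. Depth is unknown, so differences of genes near 1 FPKM cannot be set against counting error.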

Other observations

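Members of 2 other gene families were also called lower with anti-CXCL10 plus GSK343. Schlafen genes, interferon-induced regulators of immune cell growth, had 4 of 8 tested members lower and none higher with anti-CXCL10 (median -0.51). Slfn2 averaged 26.7 ± 2.2 FPKM with anti-CXCL10 plus GSK343 and 48.8 ± 11.6 FPKM with control antibody plus GSK343 (log2 change -0.82 ± 0.16, limma adjusted p = 0.00512). The Schlafen count was 2 without replicate 3 or 5 of anti-CXCL10 plus GSK343 or replicate 2 or 3 of control antibody plus GSK343, 0 with the muscle covariate and 1 without the 3 muscle-rich libraries. The Ly6 family had 2 of 7 tested members lower and none higher, with a median of -0.0037, and 4 of the 7 changes were negative. Ly6c2, a surface protein of inflammatory monocytes, had 20.6, 22, 26.4, 17.3 and 16.9 FPKM with anti-CXCL10 plus GSK343, against 30.0, 60.5, 96.9, 51.6 and 65.0 FPKM with control antibody plus GSK343 (log2 change -1.44 ± 0.29, adjusted p = 0.00586), and passed in neither of the 2 muscle fits. Both gene families hold near-identical copies.

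The lowest adjusted p of the comparison, 1.44e-05, belonged to AI662270, a non-coding transcript on chromosome 11 chosen here for that value. It had 10.5, 10.9, 11.8, 12 and 9.34 FPKM with anti-CXCL10 plus GSK343, against 25.7, 26.6, 26.7, 24.4 and 25.4 FPKM with control antibody plus GSK343. Without GSK343 it averaged 11.4 FPKM with anti-CXCL10 and 12.5 FPKM with control antibody.

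Malat1, a nuclear long non-coding RNA chosen after its values were seen, was called lower with anti-CXCL10 in the presence of GSK343 but not without it. It had 46.1, 55.9, 39.6, 31.7 and 56.3 FPKM with anti-CXCL10 plus GSK343, against 328, 184, 149, 91.4 and 95.8 FPKM with control antibody plus GSK343 (adjusted p = 0.00231). Without GSK343 it had 56.9, 83.6, 78.1, 58.1 and 43.5 FPKM with anti-CXCL10, against 124, 182, 109 and 129 FPKM with control antibody (adjusted p = 0.684), again without overlap. Processed pseudogenes made up 56 of the 501 higher and 11 of the 955 lower genes, that is 4.11% and 0.808% of the 1362 tested. Of all tested genes 3.48% were called higher and 6.64% lower, so the higher share was near that of all genes. The handling of fragments shared with their parent genes is not stated.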
